A study of Mus musculus with 4 samples.

Results

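Levels of 10 genes of MHC class I antigen presentation were examined in mouse lung tumours that carried or lacked Nrf2. The genes encode the light chain B2m, the classical heavy chains H2-K1 and H2-D1, the peptide loading proteins Tap1, Tap2 and Tapbp, the immunoproteasome subunits Psmb8, Psmb9 and Psmb10, and the class I transactivator Nlrc5. They were taken by name, and all 10 were found among 35275 gene identifiers and passed the filter that left 13147 genes for testing. Wild-type mice (Nrf2 +/+) were set against knockout mice (Nrf2 -/-), both of strain Balb/c. All animals had received vinyl carbamate, a carcinogen that induces lung tumours, at 16 mg/kg in 2 or 4 doses, and tumours were taken after 40 to 44 weeks. Each genotype has 2 samples, and every sample pools 3 to 4 tumours; the labels do not tie a sample to its number of doses, weeks or tumours, and do not say how the Nrf2 allele was disrupted.

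Library totals implied by the values were smaller in knockout 1 and 2, with 17975646 and 16892588 reads, than in wild type 1 and 2, with 21659572 and 21220307 reads. Nfe2l2, the gene for Nrf2, averaged 92.1 ± 5.95 FPKM in the Nrf2 +/+ samples and 3.31 ± 0.496 FPKM in the Nrf2 -/- samples (SD over 2 libraries), the order that the genotype labels imply. FPKM is the number of reads per kilobase of gene in a library scaled to 1000000 reads. The 12 lung epithelial and alveolar type 2 markers were all present, with summed levels of 102650 to 117842 FPKM, most of it Sftpc. Their median log2 fold change was -0.075, and 1 of the 12 was higher and 4 were lower without overlap (22.7% and 25.4% of all tested genes).

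Class I molecules show fragments of the cell's own proteins on the cell surface to CD8 T cells and natural killer cells. The proteasome cuts proteins into peptides, the TAP transporter (Tap1 with Tap2) carries these into the endoplasmic reticulum, and tapasin (Tapbp) holds the transporter beside empty class I molecules until a peptide binds. Interferon gamma induces the pathway: IRF1 acts on the promoters, NLRC5 is recruited to those of class I genes, and the catalytic subunits of the standard proteasome are replaced by Psmb8, Psmb9 and Psmb10. Most nucleated cells express class I genes, leukocytes at high levels.

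Most of the 10 genes stood modestly higher in knockout tumours. These genes and the gene lists below were chosen with earlier results of these data known. The shares of all tested genes set beside them therefore describe a difference and do not test it. In 9 of them, all but Tap2, both knockout libraries lay above both wild-type libraries, as they did for 22.7% of all tested genes, and 0 of the 10 showed the opposite order, found for 25.4% of tested genes. The median log2 fold change of FPKM + 1 was 0.38 over the 10 genes and -0.0043 over all tested genes. None of the 10 passed the threshold of a limma adjusted p under 0.05 (0 of 10), which 0.114% of tested genes passed (15 of 13147; 252 without knockout 1 and 55 without knockout 2). At a limma unadjusted p under 0.05, 6 of the 10 were higher (B2m, H2-K1, H2-D1, Tap1, Psmb8 and Psmb9) and 0 lower, against 8.36% and 7.01% of tested genes. Limma-voom on reads recovered from the FPKM values likewise called 0 of the 10 and gave 6 at an unadjusted p under 0.05. B2m, H2-K1, Psmb8 and Psmb9 kept an unadjusted p under 0.05 with each library left out in turn, whereas H2-D1 did not with any library left out, and Tap1 did only without knockout 2.

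**Figure D1:**
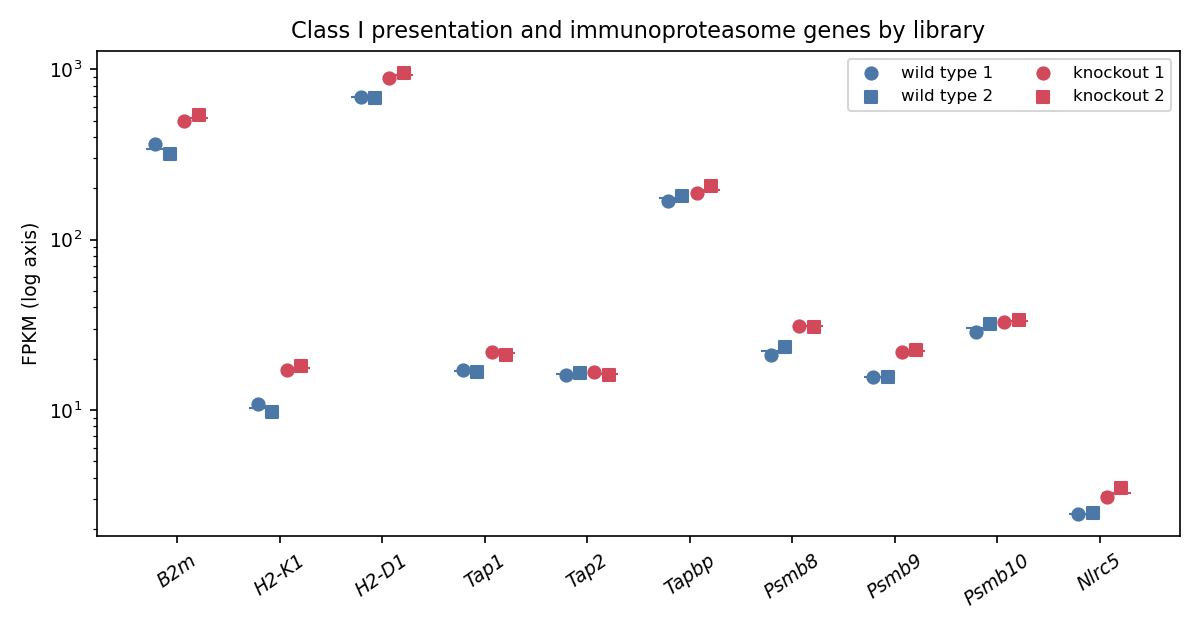
FPKM of the 10 genes in each of the 4 libraries on a log axis; blue marks wild type, red knockout, circles sample 1, squares sample 2, and short lines the mean of each genotype. The red points lie above the blue ones for every gene but Tap2, and the genes span from about 2.44 FPKM (Nlrc5) to 954 FPKM (H2-D1).

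These are bulk samples, in which more cells of a type and more RNA per cell cannot be told apart, and markers of several cell types were also higher in the knockout libraries. Beside the counts below, 22.7% of all tested genes were higher without overlap and 25.4% lower. The counts also include markers too low to be tested, for which these shares are not a matched reference. The sum of the 12 T cell markers was 23.5 FPKM in wild type 1, 22.7 in wild type 2, 51.3 in knockout 1 and 54.4 in knockout 2, and all 12 were higher in both knockout libraries. The 10 neutrophil markers went from 29.2 and 30.2 to 102 and 116 FPKM, with 6 of 10 higher without overlap and 3 past the adjusted threshold in limma. Ly6g, a defining marker, was lower without overlap, with at most 2 reads in any library. The 10 B cell markers summed to 45.5 and 43.7 against 62.5 and 83.3 FPKM (9 of 10 non-overlapping). The 12 macrophage markers summed to 10244 and 9672 against 17632 and 12503 FPKM, a sum made up mostly of Lyz2, which alveolar type 2 cells also express; 3 of the 12 were higher and 1 lower without overlap. Erythroid markers, 7 in all, summed to 247 and 490 against 1194 and 1094 FPKM (6 of 7 non-overlapping). Dendritic cell, endothelial and fibroblast markers were highest in knockout 2, at 92.0, 275 and 660 FPKM, and lowest in wild type 2, at 45.8, 119 and 261 FPKM, while knockout 1 and wild type 1 lay close together in these sums. Without overlap, 8 of the 10 dendritic cell, 4 of the 10 endothelial and 6 of the 10 fibroblast markers were higher; Fscn1, which makes up most of the dendritic cell sum, overlapped. Across the 10 pan-leukocyte markers the sums were much closer, at 1025 and 952 FPKM in wild type 1 and 2, compared with 1064 and 1013 FPKM in the knockout libraries, although 6 of the 10 were higher and 1 lower without overlap, the lower one being Lcp1, the largest term of the sum. Ptprc, the leukocyte surface protein CD45, was at 21.0 and 16.3 FPKM in wild type 1 and 2, compared with 19.7 and 19.3 FPKM in the knockout libraries, so its groups overlapped. The part of these cells in the levels of the class I genes was not tested.

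**Figure D2:**
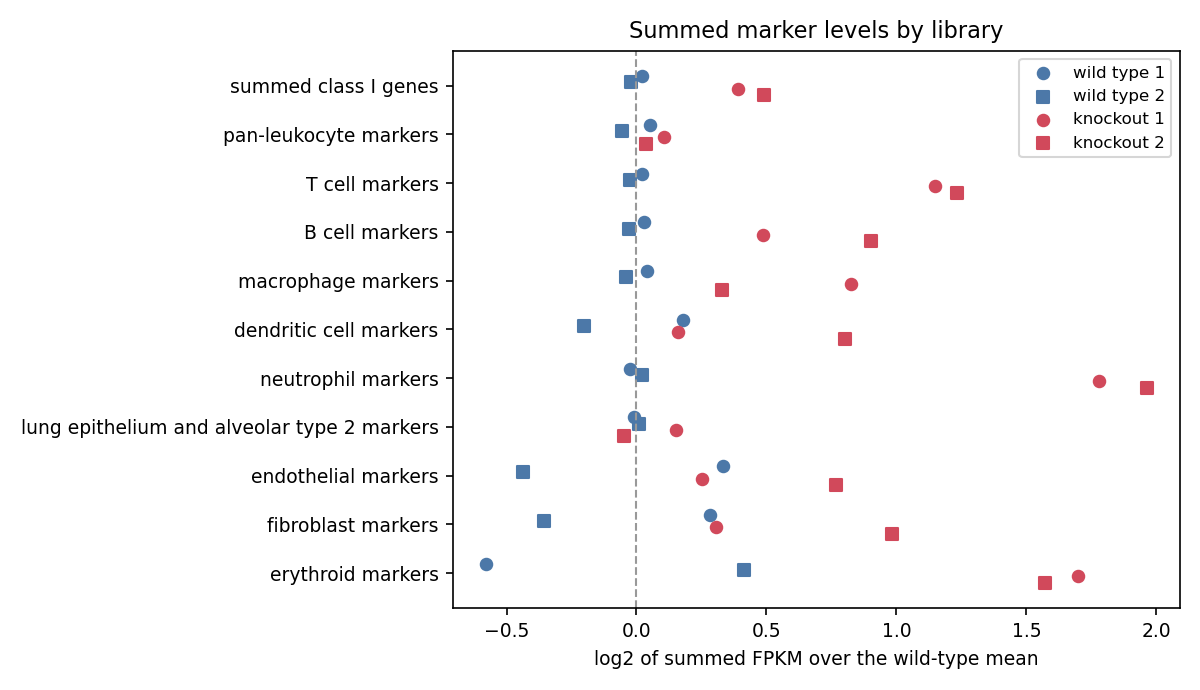
Summed FPKM of the 10 class I genes and of each marker list in each library, as log2 of the ratio to the mean of the wild-type libraries. The class I sum, the T cell, B cell, macrophage, neutrophil and erythroid sums have both knockout libraries (red) to the right of both wild-type libraries (blue); the pan-leukocyte and epithelial sums lie near 0, and wild type 2 is lowest for endothelial and fibroblast markers.

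B2m, the invariant light chain that every classical class I molecule needs to reach the surface, is on chromosome 2 (122147686 to 122153083, plus strand, mm10). Wild type 1 and 2 had 364 and 319 FPKM, and knockout 1 and 2 had 497 and 542 FPKM. Both knockout libraries were well above both wild-type libraries, with 7685 and 7872 reads against 6771 and 5821. The mean was 1.52 times as high in knockout tumours, with a log2 fold change of 0.61 ± 0.14 (SE; 95% interval 0.27 to 0.94; limma adjusted p = 0.165). Its gene lies inside Patl2 on the opposite strand, which was at 0 to 0.0194 FPKM.

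H2-D1 and H2-K1 encode the polymorphic heavy chains that hold the peptide. H2-D1 (chromosome 17, 35262730 to 35267499, plus strand) was the most abundant of the 10 genes, at 689 and 681 FPKM in wild type 1 and 2, compared with 894 and 954 FPKM in the knockout libraries. The groups were far apart relative to the spread within each, and the means differed by a factor of 1.35 (log2 fold change 0.43 ± 0.14 SE; limma adjusted p = 0.26). H2-K1 (chromosome 17, 33996017 to 34000347, minus strand) was at 10.8 and 9.67 FPKM in wild type 1 and 2, compared with 17.1 and 18.2 FPKM in the knockout libraries. It had the highest log2 fold change of the 10, 0.73 ± 0.12 (SE; 95% interval 0.45 to 1.01), and the smallest limma adjusted p, 0.108. The FPKM of H2-D1 was 63.8 and 70.4 times that of H2-K1 in wild-type and 52.2 and 52.5 times in knockout libraries (exact two-sided permutation p = 0.33; chosen after the values were seen). The mm10 reference is from C57BL/6J, and Balb/c mice carry another haplotype of the H-2 complex, so the level of either heavy chain depends on how many Balb/c reads aligned to it. Of the 50-base windows in annotated transcripts, 9.63% for H2-K1 and 12.8% for H2-D1 also occur in transcripts of other genes, chiefly other class I heavy chains. Both values are therefore uncertain, and the effect of allele or shared reads was not tested.

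B2m relative to the summed H2-K1 and H2-D1 was 0.520 and 0.462 in wild-type and 0.546 and 0.558 in knockout libraries. The light chain was thus higher relative to the measured heavy chains in both knockout libraries, by a factor of 1.13, but an exact two-sided permutation test gave p = 0.33, which is the smallest p that 2 against 2 libraries allow (0.39 after Benjamini-Hochberg adjustment over the 7 ratios of partner genes computed, and the same for each other ratio at p = 0.33). Without wild type 2 its log2 difference was 0.087 in place of 0.17. Nearly all of the heavy chain sum was H2-D1, so this is in effect a ratio of B2m to H2-D1. The limits of allele and shared reads given above for H2-D1 apply to it.

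The promoters of B2m and H2-K1 are printed because these windows lie almost wholly outside annotated exons. Those of the other searched genes lie partly or wholly in exons. Sequences are from RefSeq on GRCm38.p6, the assembly of mm10. The promoter set used here held 8 of the 10 genes, and those of Tap2 and Nlrc5 were not searched. Windows of 250 bases before the start site were searched on both strands for GAAANNGAA (interferon response element core), TTCNNNGAA (gamma activated site), GGNNNTTCC (NF-kB core) and TGACNNNGC (core of the antioxidant response element, bound by Nrf2 with small MAF proteins), where N is any base. Of 32851 such windows, 7.13%, 7.02%, 15.7% and 10.2% hold the respective letters. Capitals mark the matches, and each line is read 5′ to 3′ on the gene's strand. The B2m stretch is chr2:122147437-122147685 (plus strand) and the H2-K1 stretch chr17:34000348-34000597 (minus strand).
B2m: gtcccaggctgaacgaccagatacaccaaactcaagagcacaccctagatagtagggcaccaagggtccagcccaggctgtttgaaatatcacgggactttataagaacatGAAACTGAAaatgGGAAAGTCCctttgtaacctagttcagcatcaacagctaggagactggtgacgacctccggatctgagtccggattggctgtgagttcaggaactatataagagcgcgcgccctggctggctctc
H2-K1: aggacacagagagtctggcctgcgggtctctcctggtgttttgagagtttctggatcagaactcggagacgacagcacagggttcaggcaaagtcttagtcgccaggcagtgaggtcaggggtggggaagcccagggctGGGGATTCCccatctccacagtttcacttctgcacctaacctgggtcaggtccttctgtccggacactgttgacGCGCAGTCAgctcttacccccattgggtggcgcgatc

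In B2m the interferon response core lies 139 to 131 bases before the start and an NF-kB core, on the minus strand, 126 to 118 bases before it. H2-K1 has 2 RefSeq start sites, and positions are from the upstream one, before which the printed stretch ends. There an NF-kB core lies 111 to 103 bases and an antioxidant response core, on the minus strand, 37 to 29 bases before the start. H2-D1 holds the same 9 letters of the NF-kB core as H2-K1, 171 to 163 bases before its RefSeq start. All 250 bases of the H2-D1 window lie in annotated exons, past the annotated start of the gene at 35262730. The H2-D1 core is shown with 10 bases on either side (chr17:35262913-35262941, plus strand) above the matching stretch of H2-K1 (chr17:34000440-34000468, minus strand).
H2-D1: gcccagggctGGGGATTCCccatctcctc
H2-K1: gcccagggctGGGGATTCCccatctccac
These matches describe the C57BL/6J reference and say nothing of whether a factor was bound in Balb/c tumours. Only the fixed letters above were searched, so a window without a match can still hold a site whose letters differ from them.

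Of the peptide loading genes, Tap1 was higher in both knockout libraries, whereas the groups overlapped for its partner Tap2. Tap1 (chromosome 17, 34187553 to 34197225) was at 17.1 and 16.8 FPKM in wild type 1 and 2, compared with 21.9 and 21.1 FPKM in the knockout libraries. Both knockout values lay above both wild-type values, with a log2 fold change of 0.33 ± 0.10 (SE; 95% interval 0.08 to 0.58; limma adjusted p = 0.247). Tap2 (chromosome 17, 34203527 to 34216321) was at 16.0 and 16.4 FPKM in wild type 1 and 2, compared with 16.8 and 15.9 FPKM in the knockout libraries, so the groups overlapped. Its log2 fold change was 0.014 ± 0.11 (SE; 95% interval -0.24 to 0.27), with a sign that turned without wild type 1 or without knockout 1. The ratio of Tap1 to Tap2, a comparison chosen after the values were seen, was 1.07 and 1.03 in wild-type and 1.31 and 1.32 in knockout libraries (exact two-sided permutation p = 0.33, the smallest possible). Tapbp (chromosome 17, 33915899 to 33929292) was at 169 and 180 FPKM in wild type 1 and 2, compared with 187 and 207 FPKM in the knockout libraries. Part of Tapbp lies in Zbtb22 on the same strand, a gene at 29.3 to 33.1 FPKM. The Tapbp groups did not overlap, but the gap between them was smaller than the spread within either, with a log2 fold change of 0.17 ± 0.12 (SE; limma adjusted p = 0.528) that was 0.099 without knockout 2. Of 11 other tested genes of peptide loading and quality control in the endoplasmic reticulum, 0 had an unadjusted limma p under 0.05. Among all tested genes, 8.36% were higher and 7.01% lower at that p. Of the 11, 0 had non-overlapping groups (22.7% of all tested genes higher, 25.4% lower), and the median log2 fold change was -0.019. Among them the chaperones Calr, Canx and Pdia3 of the loading complex were at -0.044 ± 0.16, -0.019 ± 0.12 and -0.013 ± 0.15 (log2 fold change ± SE). The peptide-trimming enzyme Erap1 was at -0.0099 ± 0.16, and the tapasin relative Tapbpl, which edits bound peptides, at 0.10 ± 0.13.

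Psmb8 and Psmb9, the immunoproteasome subunits whose genes lie beside Tap1 and Tap2 on chromosome 17, were higher in knockout tumours, while Psmb10, on chromosome 8, differed little. Psmb8 (34197721 to 34201454, plus strand) was at 20.9 and 23.3 FPKM in wild type 1 and 2, compared with 31.2 and 30.9 FPKM in the knockout libraries. The fitted log2 fold change was 0.47 ± 0.11 (SE; 95% interval 0.21 to 0.74; limma adjusted p = 0.167). Psmb9 (34181987 to 34187764, minus strand) was at 15.7 FPKM in both wild-type libraries and 21.9 and 22.6 FPKM in knockout libraries. The log2 fold change was 0.48 ± 0.10 (SE; 95% interval 0.23 to 0.73; limma adjusted p = 0.156). For both genes the groups were separated by several times the spread within either. Psmb10 (chromosome 8, 105935735 to 105938444, minus strand) was at 28.6 and 32.0 FPKM in wild type 1 and 2, compared with 32.9 and 33.7 FPKM in the knockout libraries. These values did not overlap, though wild type 2 came close to knockout 1, and the log2 fold change was 0.13 ± 0.11 (SE; 95% interval -0.13 to 0.40; limma adjusted p = 0.597). It was 0.055 without wild type 1 and 0.21 without wild type 2. Psmb8 relative to Psmb10, chosen after the values were seen, was 0.730 and 0.728 in wild-type and 0.949 and 0.915 in knockout libraries (exact two-sided permutation p = 0.33, the smallest possible).

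**Figure D3:**
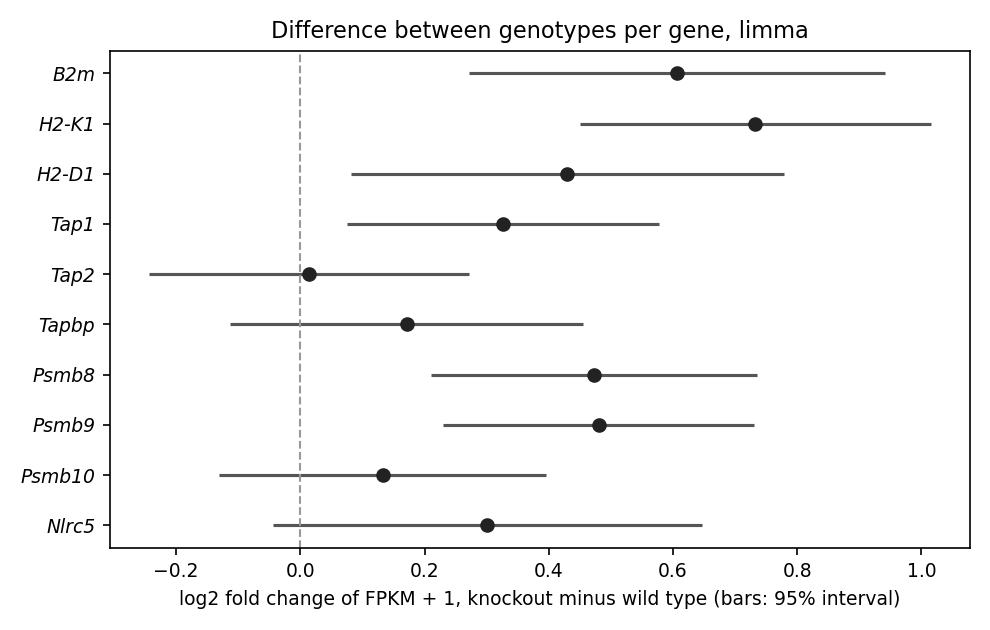
Log2 fold change of FPKM + 1 (knockout minus wild type) of each of the 10 genes with its 95% interval from limma, unadjusted for the number of genes; the dashed line marks 0. The intervals of B2m, H2-K1, H2-D1, Tap1, Psmb8 and Psmb9 lie above 0, and those of Tap2, Tapbp, Psmb10 and Nlrc5 include it.

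Within the class II region of chromosome 17 the order along the chromosome is Psmb9, Tap1, Psmb8 and Tap2. The RefSeq start sites of Psmb9 and Tap1 point away from each other with 225 bases between them, and the annotated genes share 212 bases, so that reads there cannot be assigned to either gene without strand. Along this cluster the log2 fold changes were 0.48, 0.33, 0.47 and 0.014, so neighbouring genes did not share 1 value. The windows of Psmb9, Tap1, Tapbp and Psmb10 held none of the 4 motifs. All 250 bases of the Psmb9, Tap1, Tapbp and Psmb8 windows lie in annotated exons, and the Psmb8 window lies past the annotated start of its gene. That of Psmb8 held a gamma activated site, which reads alike on both strands, 97 to 89 bases before the RefSeq start, at chr17:34198088-34198116.
Psmb8: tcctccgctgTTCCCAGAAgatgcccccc

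Each inducible subunit takes the place of a constitutive one: Psmb8 of Psmb5, Psmb9 of Psmb6 and Psmb10 of Psmb7. Psmb8 relative to Psmb5 was 0.256 and 0.280 in wild-type and 0.363 and 0.362 in knockout libraries, 1.35 times as high. Psmb9 relative to Psmb6 was 0.128 and 0.107 in wild-type and 0.142 and 0.160 in knockout libraries, 1.29 times as high. Both ratios were higher in both knockout libraries, with an exact two-sided permutation p = 0.33 for each, the smallest possible. The log2 difference of Psmb9 to Psmb6, 0.37, was 0.24 without wild type 2. Psmb10 relative to Psmb7 overlapped between groups, at 0.325 and 0.359 against 0.350 and 0.326 (exact two-sided permutation p = 1), and the sign of its log2 difference, -0.017, turned without wild type 2 (0.055) or knockout 2 (0.034) and with quantile normalization (0.014). By these FPKM values the constitutive subunit exceeded the inducible one in every library for all 3 pairs. The constitutive subunits themselves stood at log2 fold changes of 0.053 ± 0.099 (Psmb5), 0.14 ± 0.13 (Psmb6) and 0.15 ± 0.11 (Psmb7; SE). Of the 9 other proteasome genes of the pathway, 0 had an unadjusted limma p under 0.05 (8.36% of tested genes higher, 7.01% lower). Of these 9, 4 were higher without overlap (22.7% of tested genes were), and the median was 0.053. Psme1 and Psme2, the interferon-inducible cap that opens the proteasome, were at 0.018 ± 0.11 and 0.20 ± 0.12. Pomp, the chaperone that assembles proteasomes, was at 0.20 ± 0.11.

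**Figure D4:**
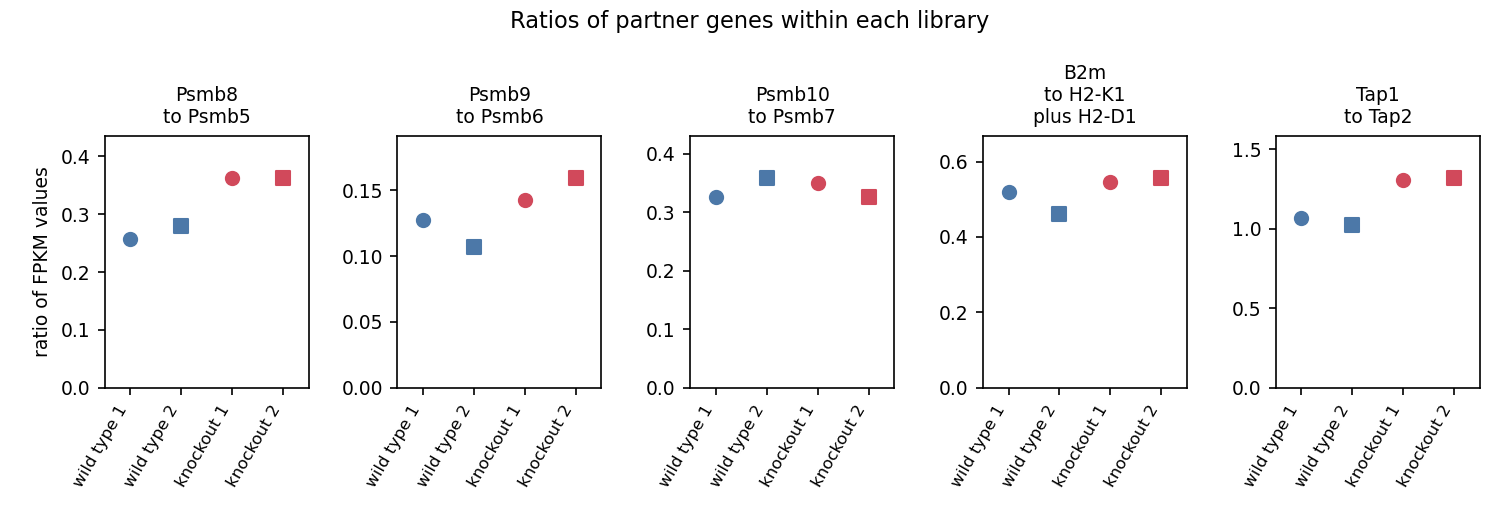
Ratio of the FPKM values of partner genes within each library, on axes that start at 0; blue marks wild type and red knockout. Psmb8 to Psmb5, Psmb9 to Psmb6, B2m to its heavy chains and Tap1 to Tap2 are higher in both knockout libraries, and Psmb10 to Psmb7 overlaps.

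Nlrc5, which activates transcription of class I genes, was the least abundant of the 10 (chromosome 8, 94434356 to 94527272, plus strand). It was at 2.44 and 2.48 FPKM in wild type 1 and 2, compared with 3.07 and 3.46 FPKM in the knockout libraries. The groups did not overlap, and the mean was 1.33 times as high in knockout tumours. The log2 fold change of FPKM + 1, which understates the change of so low a gene, was 0.30 ± 0.14 (SE; 95% interval -0.045 to 0.65; limma adjusted p = 0.385), and it was 0.39 and 0.090 with pseudocounts of 0.1 and 10. Only 134 to 149 reads per library lie behind these values, or a whole multiple of that if the gene was counted over a longer length.

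Most regulators upstream of the pathway had small fitted differences. Of 17 tested genes of interferon gamma signalling and class I regulation, 1 had an unadjusted limma p under 0.05. It was Irf8, a leukocyte transcription factor, which was higher, as 8.36% of all tested genes were at that p. Without overlap, 7 of the 17 were higher and 1 lower (22.7% and 25.4% of all tested genes), and the median log2 fold change was 0.060. Ifng, the cytokine itself, was barely detected, with 2 and 1 reads in wild-type and 4 and 2 in knockout libraries, and no fold is given. Irf1, a transcription factor induced by interferon gamma and a direct activator of class I genes, was at 41.1 and 42.6 FPKM in wild type 1 and 2, compared with 50.1 and 48.5 FPKM in the knockout libraries (log2 fold change 0.23 ± 0.10 SE; limma adjusted p = 0.345). Ifngr2, a receptor chain, was at 0.24 ± 0.10. Rfx5, a subunit of the complex that binds class I and class II promoters, was at 0.063 ± 0.11. Ciita, the class II counterpart of Nlrc5, was the 1 gene of this list whose knockout values both lay below both wild-type values, at 23.99 and 21.7 FPKM in wild type 1 and 2, compared with 19.1 and 21.2 FPKM in the knockout libraries (log2 fold change -0.17 ± 0.12 SE). Nlrc5 and Ciita thus had fitted changes of opposite sign, neither of which passed the threshold.

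Among 17 other class I heavy chains and relatives, of which 14 were tested, 6 had an unadjusted limma p under 0.05, all higher (8.36% of all tested genes), and 0 passed the adjusted threshold. The median log2 fold change was 0.29, and 9 of the 14 were higher without overlap, against 22.7% of all tested genes. H2-M2, a heavy chain of the M region, was at 0.421 and 0.298 FPKM in wild type 1 and 2, compared with 2.15 and 6.94 FPKM in the knockout libraries, so that the knockout libraries also differed from each other by more than 3-fold. H2-Q6, of the Q region, was at 9.76 and 6.03 against 13.8 and 16.5 FPKM, and H2-T24, of the T region, at 4.64 and 2.86 against 7.26 and 7.34 FPKM. In each of these the knockout libraries were higher, with limma adjusted p of 0.161, 0.178 and 0.173. Together the 19 heavy chain genes in the table reached 947 and 914 FPKM in wild type 1 and 2, compared with 1190 and 1282 FPKM in the knockout libraries, of which H2-D1 made up 72.8% to 75.1%. Some heavy chain transcripts share sequence, as given above for H2-K1 and H2-D1, and how shared reads were assigned is not known here.

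Among genes that respond to interferons outside antigen presentation, 0 were called, and the medians of both interferon lists lay near the 0.38 of the 10 class I genes. Of 12 tested interferon gamma response genes 2 had an unadjusted limma p under 0.05, both higher, against 8.36% of all tested genes. Of these 12, 5 were higher without overlap (22.7% of all tested genes), and the median log2 fold change was 0.34. These include the immunity-related GTPases Tgtp2 (1.51 and 0.889 against 2.41 and 2.79 FPKM) and Iigp1 (4.16 and 3.00 against 4.87 and 6.10 FPKM), and, above that p, the guanylate-binding protein Gbp4 (2.76 and 1.56 against 3.04 and 3.77 FPKM). In each, wild type 2 was the lowest library. Of 17 tested type I interferon response genes 5 had an unadjusted limma p under 0.05, all higher (again beside 8.36%). Without overlap, 11 of the 17 were higher (again beside 22.7%), and the median was 0.33. Among them were Usp18, which removes ISG15 from proteins, at 0.52 ± 0.16 (log2 fold change ± SE), Oas2, which senses double-stranded RNA, at 0.58 ± 0.18, and Bst2, which tethers viral particles, at 0.32 ± 0.11. Of 12 listed receptors that read class I molecules 11 were in the table, 3 reached the level for testing, and Klra4 and Klra8 were listed at 0 in every library. These values of 0 were obtained against a C57BL/6J reference, and whether the Balb/c genome carries these genes was not examined. Klrd1, the CD94 chain of natural killer cell receptors, was at 0.328 and 0.937 against 2.05 and 1.35 FPKM, from 5 to 26 reads per library. Pirb, an inhibitory receptor of myeloid and B cells, was at 5.29 and 5.06 against 6.75 and 5.90 FPKM. Over all 7 lists, 15 of 83 tested genes had an unadjusted limma p under 0.05 and were higher, with 0 lower, against 8.36% and 7.01% of all tested genes. Without wild type 2 these counts were 7 higher and 2 lower.

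**Figure D5:**
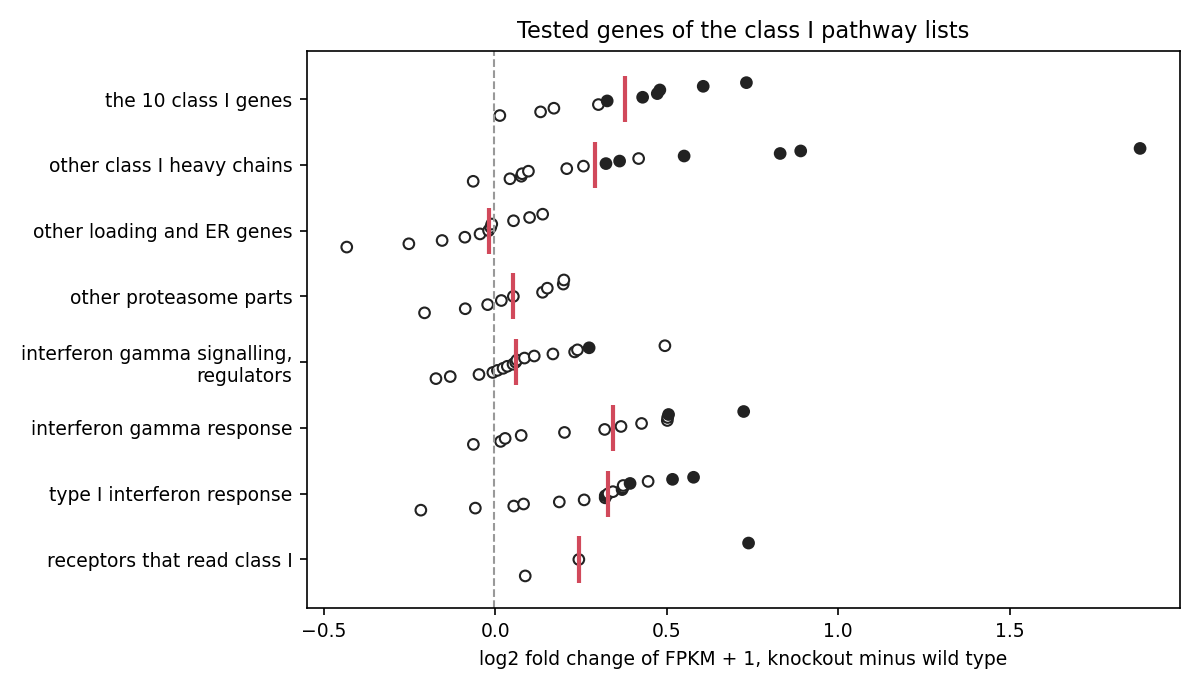
Log2 fold change of FPKM + 1 (knockout minus wild type) of each tested gene of the class I pathway lists; filled points have an unadjusted limma p under 0.05, red lines mark list medians, and the dashed line the median of all tested genes (-0.0043). The medians of the 10 class I genes (0.38), the other heavy chains (0.29) and both interferon response lists (0.34 and 0.33) lie to the right of it, and those of the loading, proteasome and regulator lists lie close to it.

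By FPKM, the order of levels in wild-type tumours was H2-D1, B2m, Tapbp, Psmb10, Psmb8, Tap1, Tap2, Psmb9, H2-K1 and Nlrc5. Tap1, Tap2 and Psmb9 all lay between 15.7 and 17.1 FPKM there. In knockout tumours Psmb9 (21.9 and 22.6 FPKM) and Tap1 (21.9 and 21.1 FPKM) lay close together, with both Psmb9 values above both Tap1 values, and H2-K1 (17.1 and 18.2 FPKM) stood above Tap2 (16.8 and 15.9 FPKM). Of the 10 genes, 7 were highest in knockout 2 and 3 in knockout 1, and 5 were lowest in wild type 1, 4 in wild type 2 and 1, Tap2, in knockout 2. The median log2 fold change of the 10 genes did not rest on 1 library, at 0.37 to 0.42 with each left out in turn. Single genes with small differences, such as Tap2, Tapbp and Psmb10, depended more on which library was left out. The median deviation of the 10 genes from their own mean over the libraries was -0.18 and -0.17 in wild type 1 and 2 and 0.18 and 0.22 in knockout 1 and 2 (log2 of FPKM + 1).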

How the data were processed

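RNA from pooled lung tumours of 2 wild-type and 2 knockout samples was sequenced. The deposited values are FPKM per gene. How the authors used TopHat2, DESeq2 and mm10, which the submitters' processing notes list, is not stated. For the read counter, annotation, gene lengths, filters and strand setting, the answer is not given in the sources used here. Symbols and coordinates are from GENCODE M21 (GRCm38, the assembly of mm10) and matched 34490 of 35275 identifiers. FPKM times transcript length gave whole multiples of 1 constant per library, from which the library totals and the reads of 21599 of 21601 genes above 0 were recovered (tolerance 0.0005 reads). The length was an annotated one for 5498 genes and otherwise the smallest that fitted, as for 9 of the 10 members, whose reads could thus be undercounted. The median depth of tested genes was 507 reads in a library.

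On log2(FPKM + 1), limma 3.58.1 (R 4.3.3) compared the genotypes with a mean-dependent variance prior of 4.12 degrees of freedom beside 2 residual ones. Genes needed 1 FPKM or more in no fewer than 2 libraries, and p-values were adjusted by Benjamini-Hochberg over the 13147 that remained. The code was tested on simulated data. Fold changes on this scale understate the change of low genes. The design text counts 2 mice of each genotype, but nothing ties the pooled tumours to single animals, so p-values measure the spread between these 4 samples. Ratios of partner genes were tested with an exact two-sided permutation test. Alternatives were quantile normalization, median-ratio scaling, no trend, no filter, a minimum of 5 FPKM, pseudocounts 0.1 and 10, a replicate block, leaving out each library, limma-voom on recovered reads and an adjusted p under 0.1.

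The members and gene lists were chosen with earlier results of these data known. Named genes are the 10 members, Nfe2l2, a fixed set of partners and regulators, and up to 3 non-overlapping genes with the smallest p from each list; genes named outside it (Fscn1, Klra4, Klra8, Lcp1, Lyz2, Patl2, Sftpc, Zbtb22) were chosen after their values were seen. Some genes that this rule names are not reported here.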

Additional observations from a re-analysis of the deposited data

How the results depend on the processing

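With 2 samples a genotype, the exact permutation test could not pass any threshold, and every call rests on limma's model. Of the 10 genes, 0 were called under every alternative but the crossed pairing below, with the smallest adjusted p between 0.0655 (H2-K1, without knockout 1) and 0.329 (Psmb9, no filter), and 4 to 5 had an unadjusted p under 0.05 with 1 library left out. The number of genes called, 15, was 1 with no filter, 8 by limma-voom on recovered reads, 65 at an adjusted p under 0.1, and 10 to 252 with 1 library left out. The median of the 10 genes, 0.38, was 0.34 with quantile normalization, 0.28 and 0.41 with pseudocounts of 10 and 0.1, 0.42 by limma-voom, 0.37 to 0.42 with 1 library left out, and 0.43 at an FPKM of at least 5, where Nlrc5 was not tested. Tap2 was at -0.0016 without wild type 1 and -0.021 without knockout 1, and at most 0.049 (without knockout 2). The log2 difference of Psmb10 to Psmb7 was -0.089 to 0.055 with 1 library left out and 0.014 with quantile normalization; those of Psmb8 to Psmb5 (0.37 to 0.50), Psmb9 to Psmb6 (0.24 to 0.49) and B2m to its heavy chains (0.087 to 0.26) kept their sign. Genes of the 7 pathway lists at an unadjusted p under 0.05 numbered 7 to 15 higher and 0 to 2 lower with 1 library left out. Beyond the settings that drop samples or genes, the cause of these shifts was not tested.

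Replicate numbers are shared between genotypes, but deviations of same-numbered samples from their group means correlated at -0.306 across genes, and nothing in the labels pairs them. With a replicate block 69 genes and 0 of the 10 were called, and 4 of the 10 had an unadjusted p under 0.05. A crossed pairing, chosen after seeing the data, called 848 genes and 4 of the 10.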
